A study of Mus musculus with 6 samples.

Results

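The machinery that starts transcription by RNA polymerase II was examined for changes in a splicing score in cultured cortical neurons given N40K, relative to cultures given a control virus. The genes were taken by their symbols: Polr2a to Polr2m, the Med genes of Mediator, the Taf genes (Taf15 left out) and the Gtf2 genes. This rule gave 78 genes of the 15705 in the deposited table, and all 78 had a score in every library and entered the test. They comprise 13 Polr2, 30 Mediator, 20 Taf and 15 Gtf2 genes.

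Cortical neurons of C57BL/6 mouse embryos were isolated at embryonic day 18, and at day 7 of culture they were exposed to lentivirus for 3 days. The control group of 3 libraries received the FCK1.3GW vector, which carries EGFP behind a short CaMKII promoter. The N40K group, also of 3 libraries, received the same vector with N40K, an N-terminal fragment of the U1 snRNP protein made from Snrnp70, and the series addresses how U1 snRNP dysfunction in Alzheimer's disease affects neurons. Both vectors also carry the WPRE element and long terminal repeats. CaMKII promoters act mainly in excitatory neurons, so other cells in the cultures need not have made the transgene. The labels do not state whether replicates were separate cultures, and the p-values then measure only the spread between these libraries, which may be technical.

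One score per gene and library, called Sd, was deposited. It is read here as splicing deficiency, a ratio that grows when unspliced RNA is high relative to spliced RNA of the same gene. It gives no RNA level, so neither the expression of these genes, nor N40K itself, nor the neuronal markers of the cultures could be checked with it, and a gain in unspliced RNA cannot be told apart from a loss of spliced RNA. In these bulk cultures a change in the share of a cell type and a change within its cells cannot be told apart either. Member scores ran from 0.0011 to 0.3401, with a resolution of 4 decimals and unknown read depth. Changes were tested by limma on log2(score + 0.01), which understates the change of low scores, so the plain ratio of mean scores, N40K over control, stands beside it. "Rose" and "fell" refer to a Benjamini-Hochberg adjusted p below 0.05 over all genes.

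RNA polymerase II transcribes the protein-coding genes of the nucleus. At a promoter, TFIID (TBP with its TAFs), TFIIA and TFIIB mark the start site, TFIIF escorts the polymerase, and TFIIE and TFIIH open the DNA. Mediator joins transcription factors bound at enhancers to this assembly through its head, middle and tail, and a detachable kinase module regulates that contact. U1 snRNP pairs with the start of introns in the RNA that this polymerase makes.

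Of the 78 genes, 14 rose, 5 fell and 59 did not pass, against 21.5% of all genes that rose and 4.11% that fell. The median ratio was 1.05 for these genes and 1.11 for all genes, and the median log2 change was 0.03 and 0.06. Every N40K library exceeded every control library in 24 of the 78 genes, and lay below every one in 14. Over all genes these orders were found in 33.6% and 8.67%. The rises were Taf4b, Taf1b, Med13, Taf2, Med13l, Gtf2ird2, Gtf2a2, Med14, Med12l, Med23, Gtf2h1, Taf3, Gtf2b and Med17. The falls were Gtf2e1, Polr2c, Med20, Med11 and Med21. As shares of the 78 genes, 17.9% rose, 6.41% fell, 30.8% lay wholly above and 17.9% wholly below their controls. The last share is larger than that of the whole table, and the difference was not tested.

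**Figure D1:**
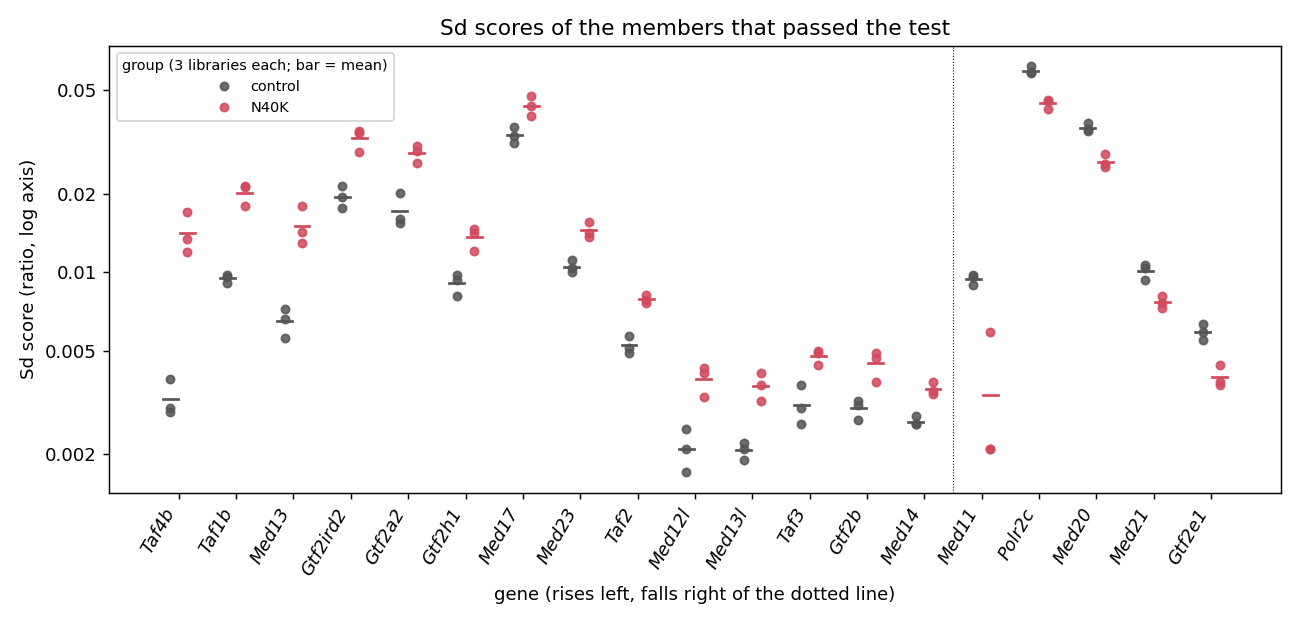
Sd scores (log axis) of the 19 genes that rose or fell, with 1 point per library, 3 control and 3 N40K libraries, and a bar at each group mean. In each of the 19 genes the groups do not overlap, and Med11 has 1 N40K library well above the other 2.

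The balance of rises and falls depended on how the libraries were scaled. The median library score was higher with N40K by 0.13 on the log2 scale, while the median gene changed by 0.06. Centring each library on its median gave 5 rises and 22 falls among the 78 genes (all genes 9.75% and 18.4%). Centring on the median deviation instead gave 10 and 10 (14.2% and 9.67%), and quantile normalization gave 8 and 15 (12.9% and 12%). The rises of Taf4b, Taf1b, Med13, Gtf2ird2 and Gtf2a2 kept their calls under all 3 scalings. So did the 5 falls, but each scaling moved their log2 changes further down, so the scalings could not test them. With replicate number added to the model as a replicate block, 10 of the 14 rises and 0 of the 5 falls kept their calls.

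**Figure D2:**
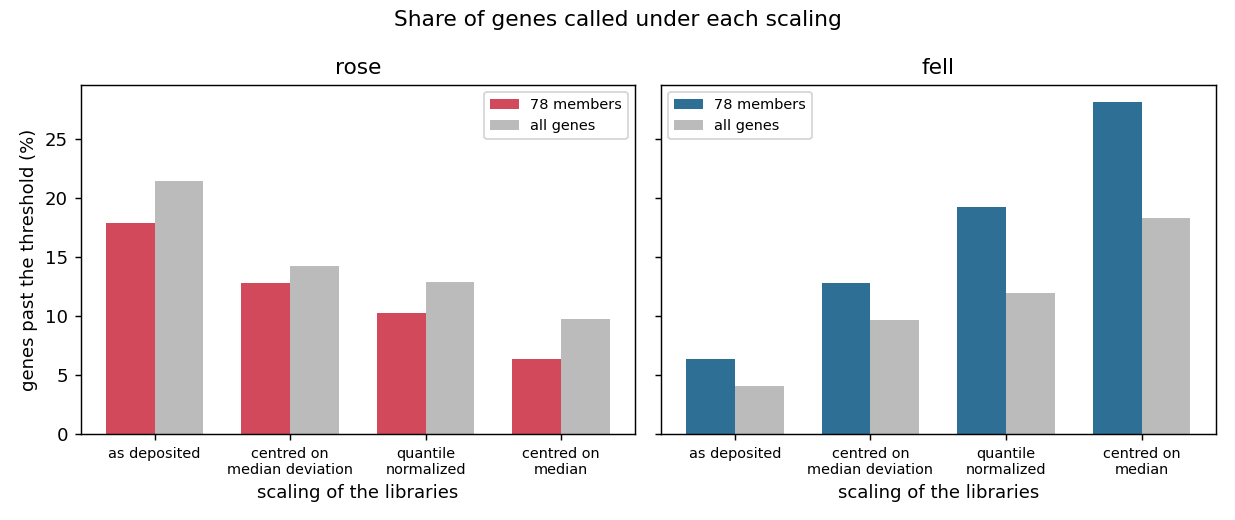
Percentage of genes past the threshold under 4 scalings of the libraries, rises left and falls right, for the 78 genes (coloured bars) and all 15705 genes (grey bars). Among the 78 genes, falls outnumber rises after quantile normalization (15 against 8) and under median centring (22 against 5).

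The polymerase itself showed 0 rises among its 12 core subunit genes and 1 fall, against 21.5% and 4.11% of all genes. At an unadjusted limma p below 0.05 the rises were also 0. The longest of the 12 genes, Polr2b, spans 39.2 kb. Over all genes, 6.85% of those under 10 kb and 17.6% of those of 10 to 50 kb rose. The part of length was not tested. Polr2a, which encodes the large catalytic subunit with the heptad-repeat tail, had scores of 0.0191, 0.0187 and 0.0205 in control libraries and 0.0208, 0.0197 and 0.0195 with N40K. These overlapped, with a log2 change of 0.03 ± 0.06 (SE) and an adjusted p of 0.773. Polr2b, which encodes the other large subunit, scored 0.0035 to 0.0039 and 0.0039 to 0.004 (adjusted p = 0.338).

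Polr2c, whose product forms the assembly platform of the enzyme with the subunit made from Polr2j, was the subunit gene that fell. Its control scores were 0.0619, 0.0581 and 0.0587, and its N40K scores were 0.0457, 0.0425 and 0.0461. Every N40K library was lower than every control library, with a ratio of 0.752 and a log2 change of -0.35 ± 0.07 (SE; adjusted p = 0.0166). The call ended without any 1 control library or without N40K replicate 2 (highest adjusted p = 0.0605), and with the replicate block (0.0608). Polr2c overlaps Dok4 on the opposite strand, and whether the score used strand is not given in the sources used here.

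The other core subunit genes had ratios from 0.778 for Polr2l to 1.23 for Polr2k, both of which encode small subunits shared with the other nuclear polymerases. Polr2i had the highest scores of all 78 genes, at 0.3175, 0.3287 and 0.3401 in control libraries and 0.3203, 0.309 and 0.3358 with N40K, which overlapped. Polr2f, a further shared subunit gene, had its N40K scores of 0.0017 to 0.0019 below its control scores of 0.002 to 0.0027, but did not pass (adjusted p = 0.184). Polr2m encodes Gdown1, which binds the polymerase and makes it dependent on Mediator, and it did not pass at a ratio of 1.1 (adjusted p = 0.409). Its direction turned after each of the 3 scalings, as did that of Polr2a, and with libraries centred on their medians Polr2m passed as a fall.

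**Figure D3:**
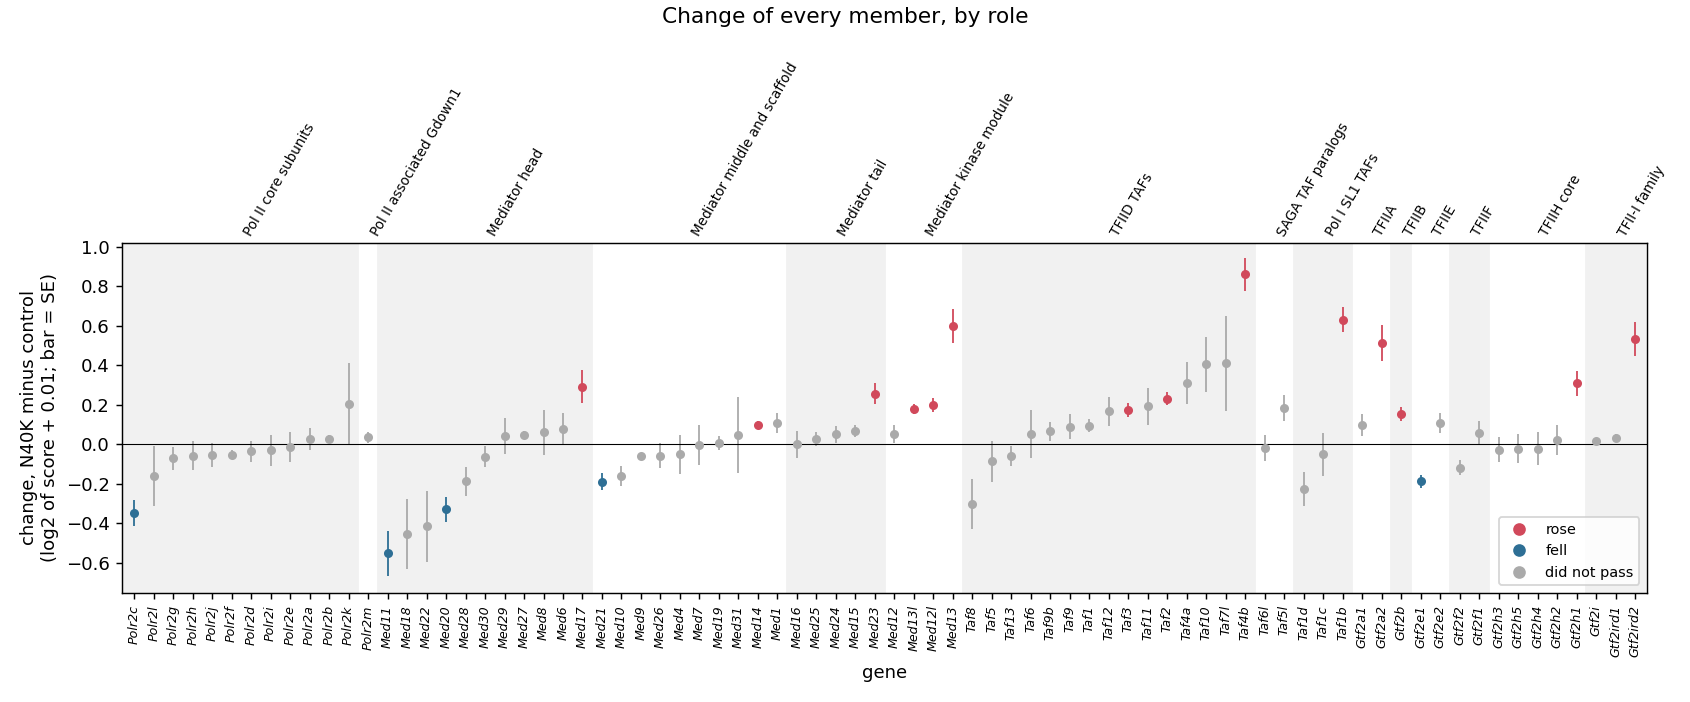
Log2 change (N40K minus control, on log2 of score + 0.01, bars SE) of each of the 78 genes, grouped by the complex of its product and coloured by call. Of the 12 core polymerase subunit genes 0 rose, and 3 of the 4 Med genes of the Mediator kinase module did, against 21.5% of all genes. The difference was not tested. The module genes Ccnc, Cdk8 and Cdk19 are outside the 78 and did not pass.

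Mediator had 6 rises and 3 falls among 30 genes, against 21.5% and 4.11% of all genes, and its median ratio was 1.05. By module, 3 of the 4 Med genes of the kinase module and 1 of 5 tail genes rose. The kinase module genes Ccnc, Cdk8 and Cdk19, outside the 30, did not pass. The 10 genes of the middle and scaffold gave 1 rise and 1 fall, and the 11 head genes gave 1 rise and 2 falls. The 3 kinase module genes that rose, Med13, Med13l and Med12l, span 90.6, 205 and 313 kb. Of all genes over 50 kb, 40% rose. Whether the modules differ was not tested.

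The kinase module holds Med12 and Med13 or their paralogs Med12l and Med13l, with cyclin C and Cdk8 or Cdk19. Med13, which links the kinase to core Mediator, scored 0.0072, 0.0066 and 0.0056 in control libraries and 0.0129, 0.0143 and 0.0179 with N40K. The groups were far apart, with a ratio of 2.32 and a log2 change of 0.6 ± 0.09 (SE; adjusted p = 0.00714), a call that held under every alternative run on it. Med13 overlaps Brip1os and Gm25427 on the opposite strand, so the fit on genes that overlap no other gene left it out. Med13l scored 0.0022, 0.0019 and 0.0021 in control libraries and 0.0032, 0.0041 and 0.0037 with N40K, a ratio of 1.77 (adjusted p = 0.00875). Mutations of its human counterpart cause intellectual disability. The call of Med13l ended under median centring (adjusted p = 0.25) and in no other alternative run on it. Med13l overlaps Gm43051, Gm43052, Gm43274, Gm43275 and Gm43788 on the same strand and Gm43785 on the opposite strand. The fit on genes that overlap no other gene left it out too, and same-strand reads might not be separable even if strand was used.

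Med12l scored 0.0025, 0.0017 and 0.0021 in control libraries and 0.0033, 0.0041 and 0.0043 with N40K, which did not overlap. The ratio was 1.86 (adjusted p = 0.0152). The call ended without control replicate 2, control replicate 3 or N40K replicate 2 (highest adjusted p = 0.0573). Median centring (0.0701) and the replicate block (0.0614) also ended the call. This gene overlaps genes on its opposite strand that include P2ry12, P2ry13, P2ry14, Gpr171 and Igsf10, and reads from them could count for it if strand was not used. Med12l also overlaps Gm43589 on the same strand. Its paralog Med12, which activates the kinase, had overlapping scores of 0.0121 to 0.0129 and 0.0127 to 0.0139 (ratio 1.07, adjusted p = 0.464). The difference between the paralogs was not tested. Of the partners without a Med symbol, the cyclin gene Ccnc had a ratio of 1.55 and the kinase gene Cdk8 one of 1.53, and neither passed (adjusted p = 0.0595 and 0.104), although their groups did not overlap. Cdk19 had a ratio of 1.2 at scores of 0.0006 to 0.0009.

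In the core of Mediator, Med14 is the scaffold that holds head, middle and tail together. It scored 0.0026, 0.0028 and 0.0026 in control libraries and 0.0034, 0.0035 and 0.0038 with N40K, a ratio of 1.34 (adjusted p = 0.0146). The separation was complete but small: the call ended without control replicate 1 or 3 (highest adjusted p = 0.0598) and under all 3 scalings. It also ended without the variance trend in limma (0.0558) and with the replicate block (0.0607). The direction of Med14 turned under median centring. Med23, a tail subunit that receives signals from MAP kinase-responsive factors, scored 0.0111, 0.01 and 0.0104 against 0.0137, 0.0142 and 0.0156 (ratio 1.38, adjusted p = 0.019). Its call ended without control replicate 2, control replicate 3 or N40K replicate 2 (highest adjusted p = 0.0683). Quantile normalization (0.0662), median centring (0.0632) and the replicate block (0.0688) also ended the call. Med17, a central head subunit, scored 0.0335, 0.0314 and 0.0363 against 0.04, 0.0434 and 0.0474, a ratio of 1.29. With an adjusted p of 0.0497 its call was marginal and ended without any library other than N40K replicate 1 (highest adjusted p = 0.142), under all 3 scalings and at a pseudocount of 0.1 (0.051), among others.

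The 3 falls of Mediator were in small subunits. Med11, a head subunit needed for the assembly at promoters, scored 0.0096, 0.0089 and 0.0098 in control libraries and 0.0021, 0.0059 and 0.0021 with N40K. Its ratio of 0.357 was the lowest of the 78 genes, with a log2 change of -0.55 ± 0.11 (SE; adjusted p = 0.0193), and N40K replicate 2 lay between the other N40K libraries and the controls. Without any 1 control library or without N40K replicate 3 the call ended (highest adjusted p = 0.0681), as it did with the replicate block (0.0561). Med20, a head subunit, scored 0.0348, 0.0356 and 0.0373 against 0.0253, 0.026 and 0.0284 (ratio 0.74, adjusted p = 0.0177). That call ended without any 1 control library or N40K replicate 2 (highest adjusted p = 0.0631), and with the replicate block (0.0564). Med21, which forms the hinge of the middle with the product of Med7, scored 0.0104, 0.0093 and 0.0107 against 0.0081, 0.0076 and 0.0073 (ratio 0.757, adjusted p = 0.0274). Its call ended without control replicate 1, control replicate 3, N40K replicate 2 or N40K replicate 3 (highest adjusted p = 0.0869). The replicate block ended the call of Med21 too (0.0788). Med7 itself had a ratio of 1.

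Several further head and middle genes had lower N40K scores without passing. Med22 had a ratio of 0.574, but its control scores of 0.0241, 0.0114 and 0.0135 were widely spread (adjusted p = 0.149). Med18 scored 0.0476, 0.0442 and 0.0593 against 0.0256, 0.0438 and 0.034 (adjusted p = 0.117), Med28 had a ratio of 0.742 (0.121), Med10 one of 0.781 (0.0644) and Med9 one of 0.714 (0.0506). These 5 genes are grouped here because every N40K score lay below every control score. Of the 30 Mediator genes, 8 lay wholly below their controls and 9 wholly above, against 8.67% and 33.6% of all genes. The difference was not tested. Med1, the subunit that contacts nuclear receptors, had a ratio of 1.18 with overlapping groups (adjusted p = 0.18), and the tail genes Med15, Med16, Med24 and Med25 had ratios from 1 to 1.12. Med27, a head subunit gene, had N40K scores of 0.0017 to 0.0021 above control scores of 0.0012 to 0.0016 and did not pass (ratio 1.28, adjusted p = 0.137). The other head genes Med6, Med8, Med29 and Med30 and the middle genes Med4, Med19, Med26 and Med31 had overlapping groups and ratios from 0.792 to 1.12.

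The exon ends of Med11 and Med20 are shown because U1 snRNP pairs with the last bases of an exon and the first bases of the intron after it. They were read from the GENCODE M21 transcript with the longest coding sequence, which is on GRCm38 and not on the mm9 build of the scores. Each run is the last 12 bases of an exon that is followed by an intron, with the last 3 bases in capitals.
Med11 exon 1: agacggcaaGGG
Med11 exon 2: tacctcactCAG
Med20 exon 1: gggagtgacGTG
Med20 exon 2: tgggcagccAAG
Med20 exon 3: atctctgtgGAG
Med11 has 2 introns and Med20 has 3. In Med11 1 of the 2 exon ends and in Med20 1 of the 3 carry CAG or AAG, the consensus letters at this place. Of the 578 exon ends in genes that did not pass, 38.6% carry them.

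The TAF genes of TFIID gave 3 rises and 0 falls among 15 genes, against 21.5% and 4.11% of all genes. Falls were also 0 at an unadjusted limma p below 0.05, and the median ratio of these TAF genes was 1.24. Taf4b, a paralog of Taf4a known from ovary and testis, had the largest rise of the 78 genes. Its scores were 0.0029, 0.003 and 0.0039 in control libraries and 0.012, 0.0134 and 0.0171 with N40K, so that the lowest N40K score was far above the highest control score. The ratio was 4.34 and the log2 change 0.86 ± 0.08 (SE; adjusted p = 0.00326), and the call held under every alternative run on it. Taf4b overlaps AC133172.1 on the same strand, so the fit on genes that overlap no other gene left it out. Reads of the 2 genes might not be separable even if strand was used. Taf4a, which encodes the widely expressed TFIID scaffold subunit, scored 0.0266, 0.0212 and 0.023 against 0.0283, 0.0301 and 0.0367. These groups did not overlap either, but at a ratio of 1.34 it did not pass (adjusted p = 0.0829), and the difference between the paralogs was not tested.

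Taf2, whose product binds the initiator element at the start site, scored 0.0057, 0.0049 and 0.0051 in control libraries and 0.0076, 0.0082 and 0.0078 with N40K. The 2 groups were tight and apart (ratio 1.5, adjusted p = 0.00718), and the call ended under median centring only (0.09). Taf3, which reads trimethylated lysine on histone H3 at active promoters, scored 0.003, 0.0026 and 0.0037 against 0.0044, 0.0049 and 0.005 (ratio 1.54, adjusted p = 0.0211). Its call ended without control replicate 1 or 2 or N40K replicate 2 or 3 (highest adjusted p = 0.0691) and under all 3 scalings. Taf1, which encodes the largest TFIID subunit, had N40K scores of 0.0079 to 0.0086 above control scores of 0.0069 to 0.0074 but did not pass (ratio 1.16, adjusted p = 0.087).

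Other TFIID genes moved less or varied more. Taf10, a histone-fold subunit shared with the SAGA coactivator, had a ratio of 1.4 (adjusted p = 0.0837), and Taf12, another histone-fold subunit gene, had one of 1.27 (0.154), both with separate groups. Taf8, which brings the product of Taf10 into TFIID, went the other way, at 0.0279, 0.0248 and 0.0366 against 0.024, 0.0194 and 0.0229 (ratio 0.742, adjusted p = 0.143). Taf7l, the paralog of Taf7 known from germ cells, had high and scattered scores of 0.1203, 0.1695 and 0.1926 against 0.1586, 0.2404 and 0.2529, which overlapped. Taf9 and its paralog Taf9b had ratios of 1.16 and 1.09 with overlapping groups, and Taf9 shares its locus with Ak6 on the same strand. Taf5, Taf6, Taf11 and Taf13 had overlapping groups and ratios from 0.842 to 1.24. Of the SAGA paralogs, Taf5l had a ratio of 1.29 with separate groups (adjusted p = 0.103) and Taf6l one of 0.985.

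The rule by symbol also took 3 TAF genes of SL1, the factor that recruits RNA polymerase I to ribosomal RNA genes. Taf1b, the SL1 subunit related to TFIIB, scored 0.0098, 0.0091 and 0.0096 in control libraries and 0.018, 0.0215 and 0.0212 with N40K. The groups were well separated, with a ratio of 2.13 and a log2 change of 0.63 ± 0.06 (SE; adjusted p = 0.00337), and the call held under every alternative run on it. Taf1b overlaps Gm47482 on the opposite strand, so the fit on genes that overlap no other gene left it out. Taf1c had overlapping groups (ratio 0.96), and Taf1d, which hosts small nucleolar RNAs in its introns, had a ratio of 0.809 with separate groups but did not pass (adjusted p = 0.104).

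Among the 15 Gtf2 genes, 4 rose and 1 fell, against 21.5% and 4.11% of all genes. Gtf2a2, the small subunit gene of TFIIA, which steadies TBP on the promoter, scored 0.0201, 0.0154 and 0.016 in control libraries and 0.0292, 0.0264 and 0.0305 with N40K. These did not overlap (ratio 1.67, log2 change 0.51 ± 0.09 SE, adjusted p = 0.0127). Without control replicate 3 its call ended narrowly (adjusted p = 0.0516). Gtf2a1, which encodes the large subunit, had N40K scores of 0.0135 to 0.0157 above control scores of 0.0124 to 0.0134 and did not pass (ratio 1.13, adjusted p = 0.246).

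Gtf2b encodes TFIIB, the bridge between TBP and the polymerase, and scored 0.0027, 0.0031 and 0.0032 against 0.0038, 0.0047 and 0.0049 (ratio 1.49, adjusted p = 0.0266). Its call ended without any library other than N40K replicate 1 (highest adjusted p = 0.0848), under all 3 scalings and without the variance trend (0.0551). Gtf2e1, the large subunit gene of TFIIE, which brings TFIIH to the promoter, was the one general factor that fell. It scored 0.0055, 0.0063 and 0.0059 in control libraries and 0.0044, 0.0038 and 0.0037 with N40K, which did not overlap. The ratio was 0.672 and the log2 change -0.19 ± 0.03 (SE, adjusted p = 0.0119). The call held without any 1 library (highest adjusted p = 0.0473) but ended with the replicate block (0.0564). Gtf2e2, its partner, had a ratio of 1.13 in the other direction (adjusted p = 0.169), with separate groups.

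Gtf2a2 and Gtf2e1 have the same number of introns, 4, and their scores went in opposite directions. Their exon ends are shown for that reason, printed as for Med11.
Gtf2a2 exon 1: gccttccctCAG
Gtf2a2 exon 2: gagctcataCAG
Gtf2a2 exon 3: gtcaatttcAGG
Gtf2a2 exon 4: gtgatggtaAAA
Gtf2e1 exon 1: gcatccactTGG
Gtf2e1 exon 2: atcccatgaCAG
Gtf2e1 exon 3: actgaagcaAAG
Gtf2e1 exon 4: agatgaaggAAG
Gtf2a2, which rose, has CAG or AAG at 2 of 4 exon ends, and Gtf2e1, which fell, has them at 3 of 4. Over all 870 exon ends of the 78 genes, 42.1% of 271 in genes that rose, 33.3% of 21 in genes that fell and 38.6% of 578 in the others carried CAG or AAG, a description with no test.

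TFIIF gave no call: Gtf2f1 had a ratio of 1.05 and Gtf2f2 one of 0.827 with separate groups (adjusted p = 0.545 and 0.074). TFIIH, the helicase and kinase complex that also repairs DNA, had 1 rise among 5 Gtf2h genes, against 21.5% of all genes. Gtf2h1, which encodes the p62 subunit, scored 0.0093, 0.0081 and 0.0098 against 0.0141, 0.0121 and 0.0147 (ratio 1.5, adjusted p = 0.0199). The groups were apart, but the call ended without any 1 control library or N40K replicate 3 (highest adjusted p = 0.0663), after quantile normalization (0.0708) and under median centring (0.0649). Gtf2h2, Gtf2h3, Gtf2h4 and Gtf2h5 had overlapping groups and ratios from 0.974 to 1.03.

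The TFII-I genes bear the Gtf2 symbol, but their products are sequence-specific regulators, and their human counterparts lie in or beside the region deleted in Williams syndrome. Gtf2ird2 scored 0.0194, 0.0177 and 0.0214 in control libraries and 0.0289, 0.0343 and 0.0349 with N40K. It rose by a ratio of 1.68 (log2 change 0.53 ± 0.09 SE, adjusted p = 0.0108), with the groups apart and a call that held under every alternative run on it. Its overlap with Ncf1, on the opposite strand, has the limit given for Med12l. That with Gm24139, on the same strand, has the limit given for Taf4b. Gtf2i and Gtf2ird1 had overlapping groups and ratios of 1.07 and 1.12.

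The genes that rose were longer than those that fell. By GENCODE M21, which matched all 78 genes, the 14 rises spanned 10.3 to 313 kb with a median of 58.6 kb and 15 introns, and the 5 falls spanned 1.81 to 30 kb with a median of 12.8 kb and 3 introns. The 59 others had a median of 11.9 kb and 6 introns. Of the 28 genes under 10 kb 0 rose and 2 fell, while 8 of the 16 genes over 50 kb rose and 0 fell. At an unadjusted limma p below 0.05, 1 gene under 10 kb was higher and 1 gene over 50 kb was lower. Over all genes the corresponding shares were 6.85% rises and 6.33% falls under 10 kb, and 40% and 1.91% over 50 kb. Spearman's rho between the ratio of scores and gene span was 0.517 over the 78 genes and 0.392 over the 15007 genes with a known span. These are values across genes, which share the same 6 libraries, and the score itself fell with gene span (rho of control score and span -0.443 and -0.596). The part of length in the calls was not tested. Of the 78 genes, 46 overlap another annotated gene, among them 10 of the 14 rises and 3 of the 5 falls.

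**Figure D4:**
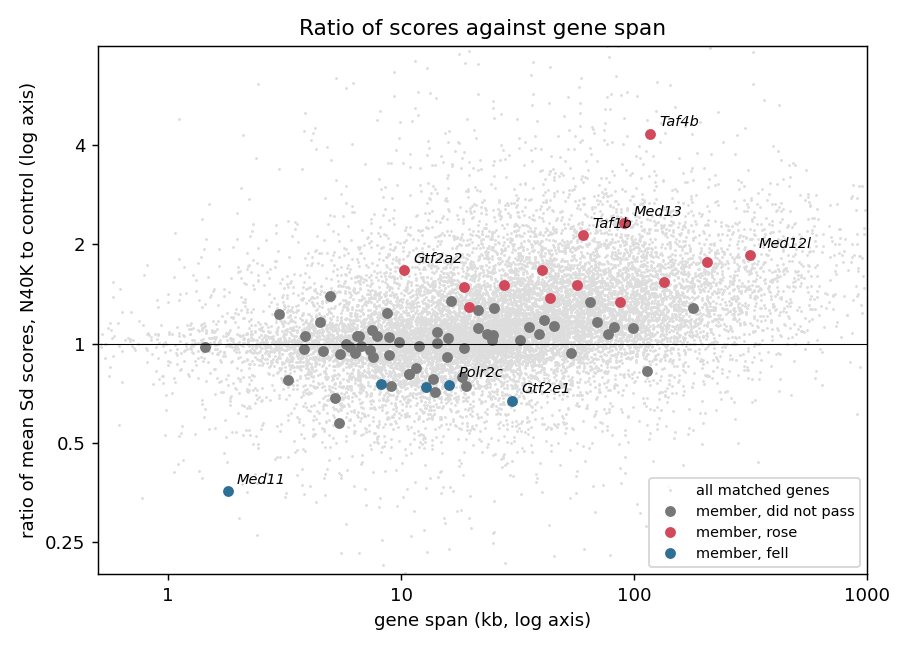
Ratio of mean Sd scores, N40K over control, against gene span in kb (both log axes), for the 78 genes coloured by call and for all matched genes in grey. Genes that rose lie at 10.3 kb and above, and the 28 genes under 10 kb hold 0 rises. The axes leave out grey points beyond their limits.

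Partners of these complexes that carry other symbols were counted from lists made by function. Over all genes, 21.5% rose and 4.11% fell. The 86 genes of all further lists gave 26 rises and 3 falls, which became 11 and 12 under median centring. Of the 5 TFIIH genes outside the Gtf2h series, 4 rose and 0 fell (also 0 at an unadjusted limma p below 0.05): Cdk7, Ccnh and Mnat1, which together form the kinase of TFIIH that phosphorylates the polymerase tail, and the translocase gene Ercc3. Mnat1 scored 0.0019, 0.0024 and 0.0017 in control libraries and 0.0036, 0.0039 and 0.005 with N40K (ratio 2.08, adjusted p = 0.0139). Cdk7 had a ratio of 1.47 (adjusted p = 0.0194) and Ccnh one of 1.44 (0.0189), and in all 3 genes the groups were apart. Leaving out control replicate 3 ended each of these 3 calls, as did control replicate 1 for Mnat1 and Ccnh, control replicate 2 for Cdk7 and Ccnh, and N40K replicate 2 for Ccnh (highest adjusted p = 0.0701). Median centring ended the call of Mnat1 (0.0855), and quantile normalization those of Cdk7 (0.0522) and Ccnh (0.0525). Ercc3, mentioned after its value was seen, had a ratio of 1.53 (adjusted p = 0.0473), and its call ended without any library other than N40K replicate 1 (highest adjusted p = 0.129) and under all 3 scalings (highest 0.172). Ercc2, the helicase gene, had a ratio of 0.987 and did not pass.

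Of 8 genes of TBP, its regulators and the Mediator kinase, 3 rose and 1 fell, against 21.5% and 4.11% of all genes. Tbp itself rose at a ratio of 1.36 (adjusted p = 0.0419), its relative Tbpl1 at 1.4 (0.00945), and Btaf1, the ATPase that removes TBP from DNA, at 1.99 (0.00499). Btaf1 scored 0.0123, 0.011 and 0.0105 in control libraries and 0.0198, 0.024 and 0.0235 with N40K, with no overlap. Dr1, the TBP-binding repressor and chosen for mention after its value was seen, was the fall (ratio 0.706, adjusted p = 0.0458). The call of Tbp ended without any 1 library (highest adjusted p = 0.12) and under all 3 scalings (highest 0.193), that of Tbpl1 under median centring (0.0532) and quantile normalization (0.0643), and that of Dr1 without any library other than N40K replicate 3 (0.124). Of 45 pausing and elongation factors of the polymerase, 14 rose and 0 fell, against the same shares of all genes. Their median ratio was 1.16 (all genes 1.11), and 1 factor was lower at an unadjusted limma p below 0.05. Rprd2, which binds the polymerase tail, scored 0.0033, 0.0037 and 0.0031 against 0.0104, 0.0143 and 0.0167 (ratio 4.1, adjusted p = 0.00489). Scaf8, another tail-binding factor, had a ratio of 2.34 (adjusted p = 0.00392), and Tcea1, the elongation factor TFIIS, had one of 1.8 (0.00458).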

How the data were processed

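RNA of 6 mouse cortical neuron libraries was compared. Per the labels' protocols, libraries were stranded poly(A) libraries with paired reads. CASAVA, STAR, BWA and bedtools 2.16.1, with the build mm9, are listed in the submitters' processing notes without roles. The authors deposited 1 table of a ratio, the Sd score. Its formula, annotation, filters and strand use were not stated there or in the labels. Read depth is unknown, so no interval that needs it is given.

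The test was limma 3.58.1 under R 4.3.3, run on log2(score + 0.01) of all 15705 genes with lmFit and a trended eBayes, 2-sided. A filter on scores above 0 in at least 3 libraries removed 0 genes, and 0 value columns were unused. The steps were tested on simulated data. The genes named were all members past the threshold, Polr2a, the largest change in each role, and the up to 3 called genes of smallest p in each further list; other members are named to account for the set. Some genes of the table are not reported here. Members and lists were chosen with earlier results of these data known. Alternatives were other pseudocounts, filters, scalings and eBayes settings, a block on replicate number and each library left out. A fit on genes that overlap no other gene was chosen after seeing the data. Spans, introns, overlaps and exon ends came from GENCODE M21 (GRCm38), matched for 95.6% of genes, so no coordinates are printed.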

Additional observations from a re-analysis of the deposited data

How the results depend on the processing

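The 14 rises and 5 falls became 14 and 6 at a pseudocount of 0.001, 13 and 5 at 0.1 and without a pseudocount, and 12 and 5 without the eBayes trend. Leaving out 1 library gave 7 to 14 rises and 1 to 7 falls among the 78 genes, 1613 to 3729 rises and 303 to 486 falls among all genes, and 9 to 26 rises and 0 to 2 falls among the 86 further transcription genes (26 and 3 as deposited).

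Counts of rises and falls over all genes (3372 and 645) became 1531 and 2883 with libraries centred on their medians, 2235 and 1518 centred on the median deviation, and 2022 and 1883 after quantile normalization. For the 78 genes the same scalings gave 5 and 22, 10 and 10, and 8 and 15. For the 86 further genes they gave 11 and 12, 18 and 6, and 14 and 9. With the 25% of genes of lowest mean score removed, 8 of 61 members, 1968 of 11773 genes and 15 of the further genes rose, and 1 further gene fell. Without the eBayes trend 1 further gene fell. On genes that overlap no other gene, an alternative chosen after seeing the data, 3 of 32 members rose and 2 fell, 968 of 6103 genes rose and 219 fell, and 7 of 37 further genes rose and 1 fell; fewer genes were tested.

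With replicate number as a replicate block, 10 members rose and 0 fell (10 were lower at an unadjusted limma p below 0.05), 1770 genes rose and 328 fell, and 10 further genes rose and 0 fell (5 at an unadjusted p). Deviations of same-numbered libraries correlated at -0.0712, 0.0376 and -0.0201. Replicates 2 correlated best with each other and the others did not. Libraries of different number reached 0.0642 (control replicate 1 with N40K replicate 3). Such weak correlations can neither show nor exclude that the numbers pair the samples.

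Directions turned for Med14 (-0.031, libraries centred on their medians), for Polr2m (-0.094, -0.03 and -0.044 with libraries centred on their medians, on the median deviation, and quantile normalized), for Polr2a (-0.103, -0.038 and -0.115, likewise) and for Polr1a (0.00 with libraries centred on their medians). Where scaling changed a count, the cause was not tested.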

Other observations

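Genes of the other nuclear polymerases were counted in the same way. Of 7 Pol I subunit genes 2 rose and 0 fell, against 21.5% and 4.11% of all genes (falls also 0 at an unadjusted p below 0.05): Polr1a, the largest subunit gene, at a ratio of 1.29 (limma adjusted p = 0.0163) and Polr1b at 1.34 (0.0494). Among the Pol III subunit genes, Polr3b rose at a ratio of 1.93 (adjusted p = 0.0127). Polr3c fell at a ratio of 0.571 (0.0161), and Crcp, chosen after its value was seen, fell at 0.685 (0.0309). Of 10 genes of TFIIIA, TFIIIB and TFIIIC, which recruit Pol III, 1 rose and 0 fell (also 0 at an unadjusted p below 0.05): Gtf3c1, the largest TFIIIC subunit gene, at a ratio of 1.79 (0.0107). The call of Polr1b ended without any 1 library (highest adjusted p = 0.139) and under all 3 scalings (highest 0.178), and that of Crcp without any library other than control replicate 2 (0.0931). That of Polr1a ended without control replicate 2, control replicate 3 or N40K replicate 2 (0.0613), and under all 3 scalings. That of Polr3c ended without control replicate 1, control replicate 3 or N40K replicate 2 (0.0592), and that of Polr3b without control replicate 3 (0.0508) and under median centring (0.0907). The call of Gtf3c1 held without any 1 library (0.0447) and ended under median centring (0.262).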
